A study of Mus musculus with 8 samples.

Results

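The genes described here are 37 proliferation and DNA replication genes in naive CD8 T cells, which become cytotoxic T cells once they meet antigen. They were taken by symbol from a named list, 37 of the 22609 genes measured, and all 37 were found in the table of normalized read counts. They were kept in 2 classes, 20 mitotic genes and 17 replication genes. Stmn1, which regulates microtubules, was placed with the mitotic genes. The cells came straight from spleen, without culture named in the labels, and the mice were C57BL/6 and 3 months of age. There were 4 Brca1 wild type (WT) libraries, numbered 45, 54, 57 and 65 in their titles, and 4 Brca1 heterozygous (Het) libraries, numbered 31, 53, 56 and 139. How the Brca1 allele was made, and whether each library came from a separate mouse, is not stated in the labels, so a p-value sets a difference against the spread among 8 libraries that may be technical. The labels name no agent, and the 8 libraries share strain, tissue and age.

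A resting T cell sits outside the division cycle and enters it after antigen is met. Replication genes include the MCM subunits, which form the helicase loaded on origins before S phase, and enzymes that supply deoxynucleotides, and many of them are controlled by E2F factors. Mitotic genes are induced later, in G2 and M phase, and many carry a cell cycle genes homology region (CHR) downstream of CCAAT boxes, which the MuvB complexes and NF-Y bind. Brca1 acts in homologous recombination, which uses the sister copy made in S phase, and is itself a cell cycle regulated gene. The comparison set the level of these transcripts in Het cells against that in WT cells.

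The 2 classes differed in the motifs their promoters hold, a feature that the choice of genes did not use. RefSeq promoter windows of build GRCm38.p6, from 250 bases before to 50 bases after the start site, were matched by symbol for 30 of the 37 genes, 16 mitotic and 14 replication genes. The CHR letters TTTGAA, on either strand, were in 11 of 16 mitotic promoters (68.8%), in 1 of 16 replication promoters (6.2%) and in 17.9% of all 32851 promoters. Mcm7 and Uhrf1 had 2 promoter windows each. Any of 4 E2F motifs (TTTCCCGC, TTTGGCGC, TTTCGCGC and TTCCCGCC) was in 9 of 16 replication promoters (56.2%), in 1 of 16 mitotic promoters (6.2%), that of Cdk1, and in 3.5% of all promoters. These 4 motifs can overlap each other, and a promoter was counted once. CCAAT was in 14 mitotic and 11 replication promoters of 16 each, against 37.4% of all promoters, and 2 or more CCAAT boxes were in 10 and 7, against 11.7%. The CHR variant TTTAAA was in 6 mitotic and 4 replication promoters, against 13.2%. The motifs were chosen with their matches in view, so these shares are descriptions. A match describes the letters and does not show that a factor binds there.

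The sequences below show the arrangement in 4 mitotic and 3 replication genes. Each is the 160 bases that end at the base before the RefSeq start site, 5′ to 3′ on the strand of the gene, with matches to CHR, its variant, CCAAT or an E2F motif, on either strand, in capitals. The mitotic windows are Ccnb1 at chr13:100786487-100786646 (minus strand), Cdc20 at chr4:118437344-118437503 (minus strand), Cdk1 at chr10:69352913-69353072 (minus strand) and Mki67 at chr7:135716380-135716539 (minus strand). The replication windows are Mcm5 at chr8:75109349-75109508 (plus strand), Mcm6 at chr1:128359706-128359865 (minus strand) and Cdc6 at chr11:98907991-98908150 (plus strand). These coordinates belong to GRCm38.p6, and the deposited values were made on mm9.
Ccnb1: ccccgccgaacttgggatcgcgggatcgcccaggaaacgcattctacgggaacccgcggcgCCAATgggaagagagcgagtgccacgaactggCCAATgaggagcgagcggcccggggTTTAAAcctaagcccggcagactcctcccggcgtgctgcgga
Cdc20: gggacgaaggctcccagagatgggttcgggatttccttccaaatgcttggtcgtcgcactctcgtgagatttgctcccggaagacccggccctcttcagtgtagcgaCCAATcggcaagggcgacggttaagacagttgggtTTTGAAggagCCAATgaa
Cdk1: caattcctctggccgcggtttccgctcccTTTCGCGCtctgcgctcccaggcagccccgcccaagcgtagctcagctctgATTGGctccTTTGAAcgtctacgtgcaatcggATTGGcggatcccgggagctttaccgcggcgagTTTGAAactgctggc
Mki67: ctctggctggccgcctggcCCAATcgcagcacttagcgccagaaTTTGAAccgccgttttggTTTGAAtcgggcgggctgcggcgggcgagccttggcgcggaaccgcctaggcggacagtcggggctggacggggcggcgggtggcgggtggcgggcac
Mcm5: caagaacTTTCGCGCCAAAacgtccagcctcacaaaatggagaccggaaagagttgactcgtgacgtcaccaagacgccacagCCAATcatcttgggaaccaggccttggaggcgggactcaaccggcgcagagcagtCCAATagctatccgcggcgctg
Mcm6: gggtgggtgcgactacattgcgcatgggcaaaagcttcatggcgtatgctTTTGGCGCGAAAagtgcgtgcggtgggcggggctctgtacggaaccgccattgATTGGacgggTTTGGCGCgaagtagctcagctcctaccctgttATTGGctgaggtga
Cdc6: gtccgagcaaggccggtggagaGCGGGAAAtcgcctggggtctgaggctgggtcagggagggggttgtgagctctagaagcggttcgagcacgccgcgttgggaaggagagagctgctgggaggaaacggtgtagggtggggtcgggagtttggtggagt
In Ccnb1, 2 CCAAT boxes began 99 and 67 bases before the start and the CHR variant began 42 bases before it. Cdk1 had CHR matches at 71 and 15 bases before the start and an E2F motif at 131 bases. Mcm6 had E2F motifs at 110, 106 and 47 bases, the first 2 of them overlapping.

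**Figure D1:**
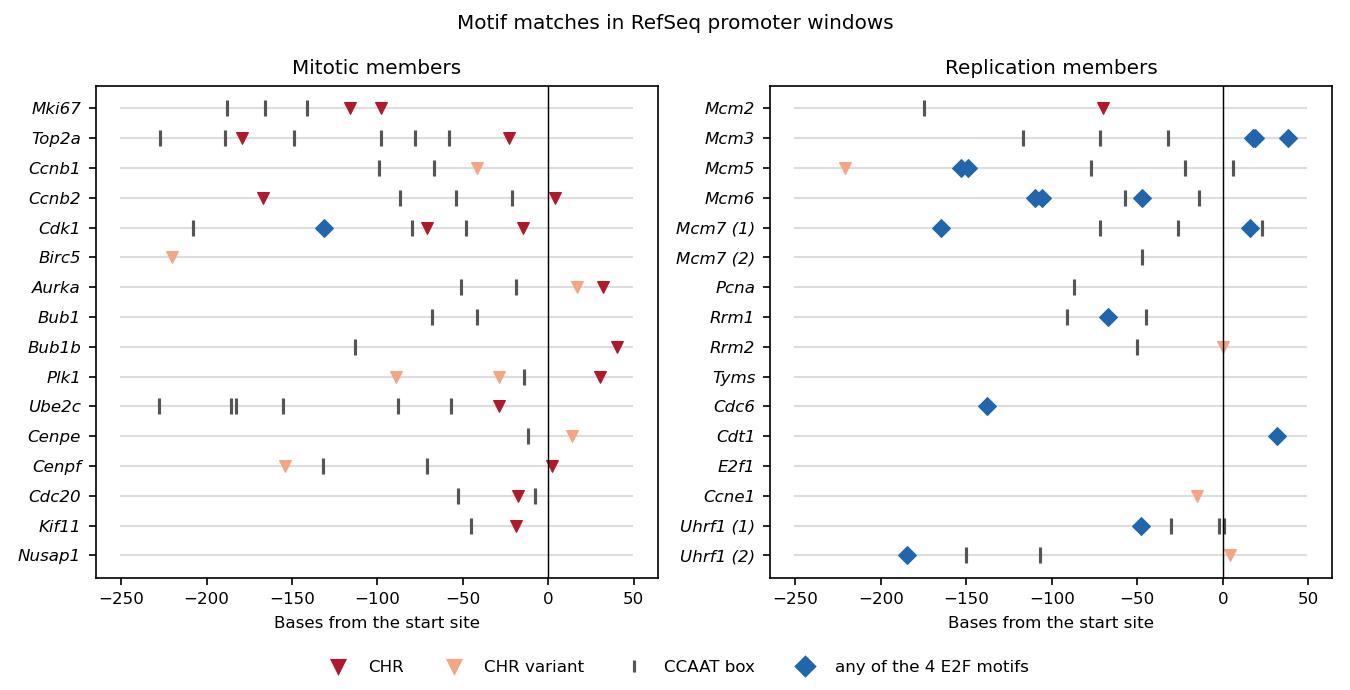
Positions of motif matches in RefSeq promoter windows of the mitotic genes (left) and replication genes (right), in bases from the start site, with 1 row per window; red and pale triangles are CHR and its variant, bars are CCAAT boxes and diamonds are any of the 4 E2F motifs. Triangles lie mostly on the mitotic side (CHR in 11 of 16 windows) and diamonds on the replication side (9 of 16).

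Cd8a, a defining marker of the labelled cell type, was high and lay between 40591 and 50265.2 in the 8 libraries. Brca1 was at 208.1, 148.6, 168.3 and 206.2 in the WT libraries, and 174.5, 142.2, 126.7 and 169.6 in the Het libraries (log2 difference -0.25, limma adjusted p = 0.742). A value per gene does not tell whether the affected allele is counted, so Brca1 gave no check of the labels. The libraries had matching distributions only at higher values. Between 15358 and 15569 genes were above 0 in the WT libraries but 13863 to 14656 in the Het libraries (exact 2-sided permutation p = 0.0286), and the lowest value above 0 was 0.2 to 0.3 in WT against 0.9 to 1.9 in Het. A low value stood for different numbers of reads in the 2 genotypes. A value of 10 stood for an estimated 20, 23, 17 and 18 reads in WT libraries 45, 54, 57 and 65, against 13, 10, 8 and 8 in Het 31, 53, 56 and 139. The groups did not overlap (19.5 ± 2.65 in WT against 9.75 ± 2.36 in Het, SD over 4 libraries each, exact 2-sided permutation p = 0.0286, the lowest value that 4 against 4 libraries allow). At a value of 100 the estimates were 106, 125, 112 and 128 reads in WT and 121, 106, 74 and 85 in Het (exact 2-sided permutation p = 0.143), and the groups overlapped. Of the members, 14 of the 20 mitotic and 4 of the 17 replication genes had a mean under 100. Over all 2510 tested genes with a mean from 10 to under 100 the median log2 difference, Het minus WT, was 0.18, against 0.01 over all 12048 tested genes. Members with a mean under 100 are given below also on a scale of estimated reads, in which values up to 100 were replaced by the estimated reads behind them, set to 100 at a value of 100 in every library.

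**Figure D2:**
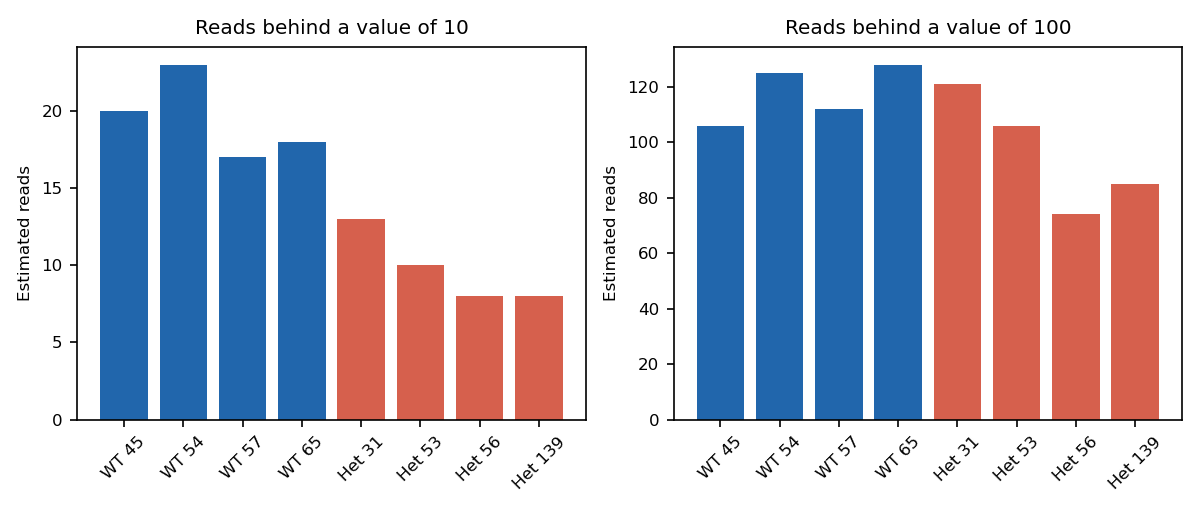
Estimated number of reads behind a normalized value of 10 (left) and of 100 (right) in each library, WT in blue and Het in red, with 1 bar per library and no error bar. The bars at 10 run from 17 to 23 in WT and from 8 to 13 in Het, while those at 100 overlap.

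No member changed between the genotypes by limma at an adjusted p under 0.05, in either class. Of all 12048 tested genes 62 passed (0.515%), all of them lower in Het. The lowest adjusted p of a member was 0.535, that of Mki67. At an unadjusted p under 0.05 there were 2 members of 37, Ccnb1 with higher and Mki67 with lower values in Het. Of all tested genes 8.19% passed, 3.79% with higher and 4.40% with lower values, so the members' share is near this background. The genotypes did not overlap in 1 member, Ccnb1, which was higher in Het, against 2.13% of all tested genes not overlapping and higher and 2.86% lower. All 37 members had a mean of at least 10 and were tested.

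The replication genes were present at a higher level per length than the mitotic genes. Per kilobase of exon, the mean normalized read count over the 8 libraries had a median of 199 in the replication genes (5.18 in Cdc6 to 828 in Mcm4) and of 16.9 in the mitotic genes (2.25 in Cenpf to 89.8 in Cdc20). The highest after Mcm4 on this scale were Mcm6 at 798, Cdt1 at 764 and Pcna at 744. The libraries also spread less in the replication genes: the SD of log2 values within a genotype had a median of 0.14 there and of 0.38 in the mitotic genes. At a mean from 10 to under 100 the median limma SE of the log2 difference was 0.40 in 4 replication genes and 0.36 in 14 mitotic genes. That SE is drawn toward a trend with level, so it cannot show whether the classes differ in spread at like level. In bulk samples the share of cells that hold a transcript and its level per cell cannot be told apart.

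**Figure D3:**
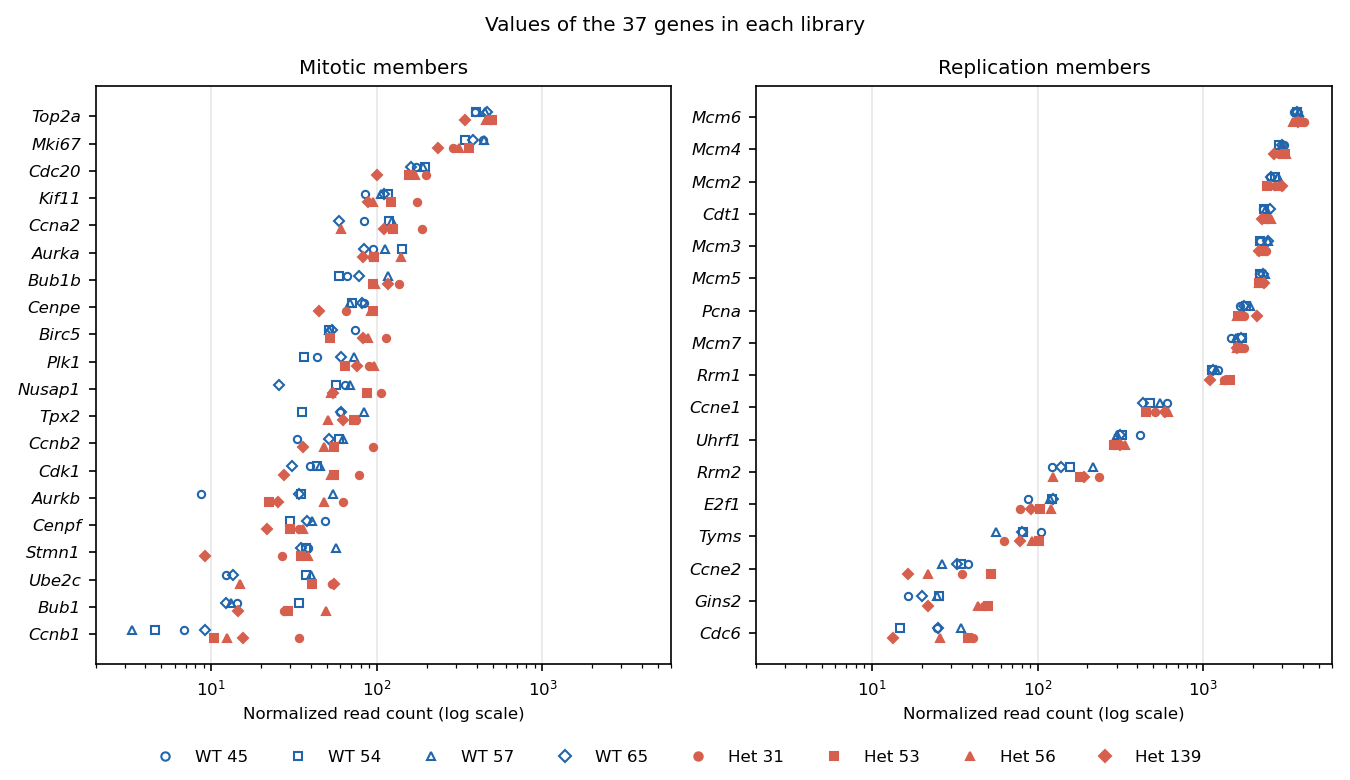
Normalized read count (log scale) of each of the 20 mitotic genes (left) and 17 replication genes (right) in the 8 libraries, sorted by mean, with open blue symbols for WT and filled red symbols for Het. The MCM genes, Cdt1 and Pcna sit between 1481.2 and 4068.9 with the genotypes mixed, and most mitotic genes lie well below them with a wider scatter.

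The mitotic genes were mixed in direction, with 14 of 20 at higher and 6 at lower values in Het and a median log2 difference of 0.22. Of all tested genes 52.0% were higher in Het, with a median of 0.01. The 14 with a mean from 10 to under 100 had a median of 0.44, beside 0.18 over all genes of that range, and the 6 with a mean of at least 100 had a median of -0.01. On the scale of estimated reads the median of the 20 was 0.09, with 13 higher and 7 lower, and that of the 14 was 0.19, beside -0.10 over all genes of that range. Without Het 31 the median of the 20 was 0.07 on the deposited scale, and without WT 45 or WT 57 it was 0.12 and 0.37. The 95% interval excluded a 2-fold difference in either direction for 8 of the 20 genes. For the other 12 a 2-fold difference in at least 1 direction was not excluded by these libraries. The 8 were 3 of the 14 genes with a mean under 100 and 5 of the 6 with a mean of at least 100. Over all tested genes it was 298 of 2510 with a mean from 10 to under 100, and 3571 of 4023 from 100 to under 1000.

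Among the markers of proliferating cells, Mki67, whose protein coats mitotic chromosomes, had the smallest p. Its values were 434.6, 338.6, 443.7 and 382.1 in WT libraries 45, 54, 57 and 65, against 286.6, 359.9, 315.2 and 234 in Het 31, 53, 56 and 139. All Het libraries but Het 53 were below every WT library. Mean levels (± SD, 4 libraries each) came to 400 ± 49.0 for WT against 299 ± 52.8 for Het. The log2 difference was -0.43 with an SE of 0.17 and a 95% interval from -0.80 to -0.06 (limma adjusted p = 0.535; exact 2-sided permutation p = 0.0571). Top2a, the topoisomerase that disentangles replicated chromosomes, was at a similar level with no such order. It was at 391.7, 398.4, 449.1 and 459.9 in the WT libraries, and 483.3, 496.5, 458.2 and 339.5 in the Het libraries. Its highest and its lowest value were both in Het, and the log2 difference was 0.05 (95% interval -0.28 to 0.39, limma adjusted p = 0.929).

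Among the cyclins and their kinase, Ccnb1, which activates Cdk1 at the entry to mitosis, had the largest difference of the 37 genes and the lowest mean. It was at 6.8, 4.6, 3.3 and 9.1 in WT libraries 45, 54, 57 and 65, against 33.7, 10.4, 12.4 and 15.6 in Het 31, 53, 56 and 139. Each Het library was above each WT library, and Het 31 stood well above the rest. The log2 difference was 1.38 (SE 0.58, 95% interval 0.11 to 2.66, limma adjusted p = 0.578, exact 2-sided permutation p = 0.0286). The estimated reads behind these values were 15, 13, 7 and 17 in the WT libraries, and 46, 11, 10 and 14 in the Het libraries. Set to 100 at a value of 100, they were 14.2, 10.4, 6.25 and 13.3 for WT, then 38.0, 10.4, 13.5 and 16.5 for Het. The genotypes overlapped on that scale, with Het 31 and Het 139 above the WT range and Het 53 and Het 56 inside it. On the scale of estimated reads the log2 difference was 0.66 (95% interval -0.51 to 1.84, limma adjusted p = 0.776). Ccnb2, the second B-type cyclin, was at 51.3 ± 13.1 in WT against 58.4 ± 25.7 in Het (log2 difference 0.13), and the sign turned on the read scale (-0.02). Ccna2, the cyclin of S and G2 phase, was at 96.2 ± 30.5 and 121 ± 52.6 (0.28), and Cdk1, their kinase, at 39.9 ± 6.52 and 53.3 ± 20.7 (0.33, and 0.13 on the read scale). In these 3 genes Het 31 was the highest library, at 95.1, 188.4 and 78.1.

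Of the mitotic kinases, Plk1, needed for spindle assembly and exit from mitosis, had the smallest p after Ccnb1 among the genes with higher values in Het. It was at 43.6, 36.2, 72.6 and 60.3 in WT libraries 45, 54, 57 and 65, against 89.1, 64.6, 95.8 and 76.3 in Het 31, 53, 56 and 139. Het 53 lay inside the WT range and the other Het libraries above it. The log2 difference was 0.64 (SE 0.29, 95% interval -0.01 to 1.29, limma adjusted p = 0.611) and 0.46 on the read scale. Aurka, the kinase of spindle poles, was at 108 ± 25.4 and 103 ± 25.2 (log2 difference -0.07). Aurkb, the kinase of the chromosome passenger complex, was at 32.9 ± 18.8 and 39.5 ± 19.2 (0.38, and 0.04 on the read scale). Birc5, survivin of the same complex, was at 73.7, 51.2, 51.7 and 53.4 in the WT libraries, and 113, 52.3, 88.8 and 82.8 in the Het libraries (0.51, 95% interval -0.14 to 1.16, limma adjusted p = 0.660, and 0.40 on the read scale). Het 53 again lay inside the WT range.

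Checkpoint and anaphase genes had differences of both signs, and none passed the test. Bub1b, a kinetochore checkpoint protein, was at 65.7, 58.8, 116.1 and 78.3 in the WT libraries, and 136.7, 95, 97.4 and 117.3 in the Het libraries. WT 57 lay inside the Het range, and the log2 difference was 0.51 (95% interval -0.08 to 1.11, limma adjusted p = 0.653) and 0.42 on the read scale. Bub1, its partner kinase, was at 18.3 ± 10.3 in WT against 30.1 ± 14.3 in Het (log2 difference 0.69, and 0.24 on the read scale). Cdc20, the activator of the anaphase-promoting complex, was at 173.2, 194, 189.4 and 161.4 in the WT libraries, and 198, 156.3, 169.1 and 100.2 in the Het libraries (-0.24, limma adjusted p = 0.768). Het 139 was far below the rest, and the difference was -0.04 without it. Ube2c, the ubiquitin-conjugating enzyme of that complex, ranged from 12.2 to 40 in WT and from 15 to 55.4 in Het (0.69, and 0.33 on the read scale).

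No kinetochore or spindle gene stood apart by the test. Cenpe and Cenpf, large kinetochore proteins, had log2 differences of -0.09 and -0.36 (-0.13 and -0.52 on the read scale), and Kif11, the motor that separates spindle poles, of 0.15. Tpx2 and Nusap1, which organise spindle microtubules, had differences of 0.17 and 0.50 (0.04 and 0.35 on the read scale). Stmn1, which destabilises microtubules and is abundant in neurons and cycling cells, had the lowest difference of the 37 genes. It was at 38.2, 37.2, 57 and 34.8 in WT libraries 45, 54, 57 and 65, against 26.6, 34.9, 38.3 and 9.1 in Het 31, 53, 56 and 139. The genotypes overlapped, and Het 139 was far below the rest (log2 difference -0.75, SE 0.46, 95% interval -1.77 to 0.28, limma adjusted p = 0.685, and -0.91 on the read scale). Without Het 139 the difference was -0.31. A list of 12 nerve genes had lower values in Het in 12 of 12, of which 5 were called by limma (6 on the read scale), with a median log2 difference of -5.33. It was at mean log2 levels from 5.99 to 8.20 in WT and from 2.18 to 5.24 in Het libraries, and its part in the Stmn1 values was not tested.

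**Figure D4:**
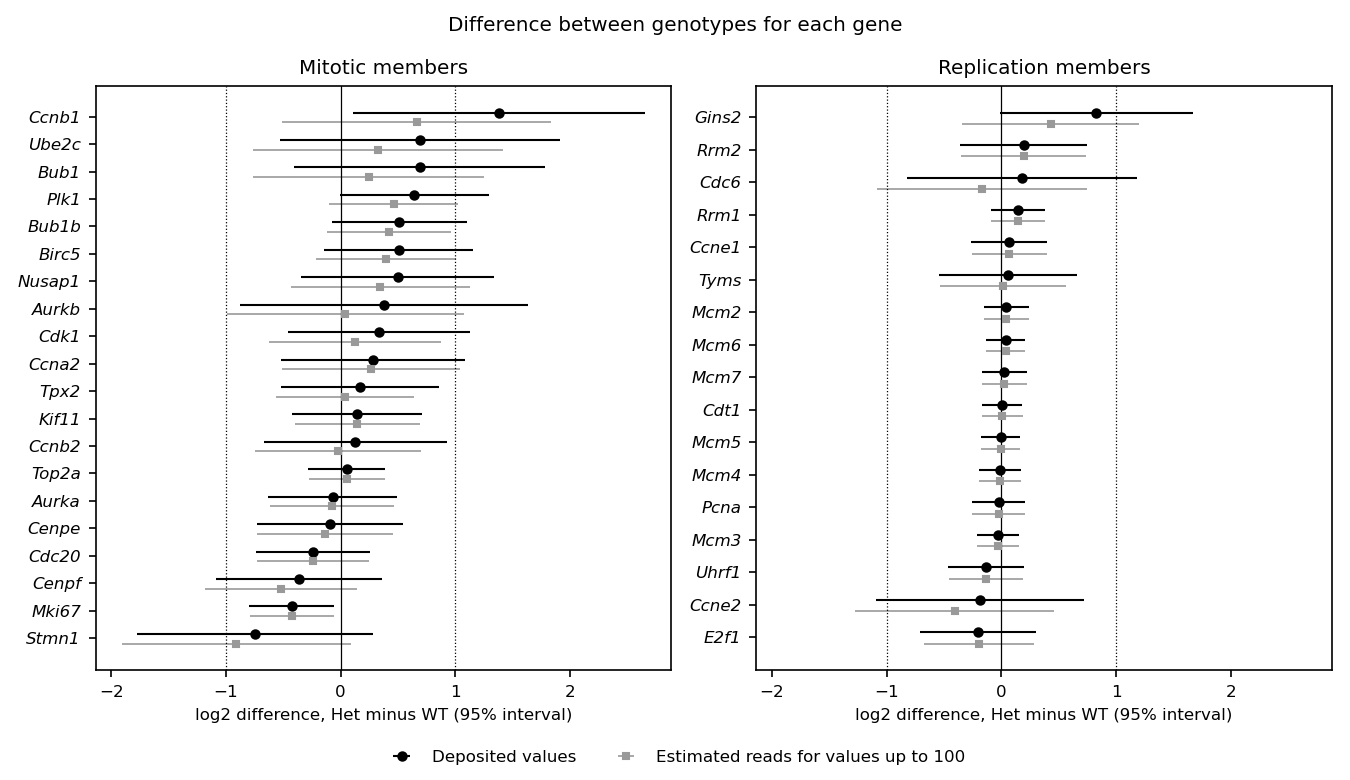
Log2 difference, Het minus WT, of each mitotic gene (left) and replication gene (right) with its 95% limma interval, on the deposited scale (black) and with estimated reads for values up to 100 (grey), 4 libraries per genotype; dotted lines mark 2-fold. The replication genes with high values crowd at 0 with short intervals, and genes with low values move to the left on the read scale, such as Ccnb1 from 1.38 to 0.66 and Cdc6 from 0.19 to -0.16.

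The replication genes had small differences between the genotypes, with 10 of 17 higher and 7 lower in Het and a median log2 difference of 0.03. On the read scale the median was 0.01. The 95% interval excluded a 2-fold difference for 14 of the 17 genes and a 1.5-fold difference for 11, beside 9302 and 7229 of the 12048 tested genes. For 2-fold these were 13 of 13 genes with a mean of at least 100 and 1 of 4 with a lower mean. Over all tested genes with a mean of 1000 or more it was 5433 of 5515, so the count goes with level.

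All 6 MCM helicase subunits were measured with little spread. Mcm6, the highest, was at 3561.8, 3678.1, 3793.1 and 3668.1 in WT libraries 45, 54, 57 and 65, against 4068.9, 3778.4, 3507.6 and 3750.1 in Het 31, 53, 56 and 139. The highest and the lowest library were both Het, and the log2 difference was 0.04 (SE 0.08, 95% interval -0.13 to 0.21, limma adjusted p = 0.900). Mcm4 was at 2982 ± 79.4 in WT against 2960 ± 224 in Het (log2 difference -0.01). Mcm2 was at 2662 ± 134 and 2752 ± 242 (0.05), Mcm3 at 2329 ± 147 and 2282 ± 94.6 (-0.03), Mcm5 at 2255 ± 83.3 and 2247 ± 84.0 (-0.01), and Mcm7 at 1619 ± 110 and 1649 ± 84.4 (0.03). No MCM interval reached beyond 0.25 in either direction, a difference of under 1.5-fold.

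The genes that load the helicase were less even in level. Cdt1, a loading factor, was as high as the MCM genes, at 2310.9, 2343.3, 2383.9 and 2521.9 in the WT libraries, and 2430.3, 2362.7, 2570.9 and 2259.2 in the Het libraries. The genotypes overlapped throughout (log2 difference 0.01, 95% interval -0.17 to 0.18, limma adjusted p = 0.977). Cdc6, its partner in loading, was at 24.8, 14.8, 34.5 and 24.9 in the WT libraries, and 40.6, 38, 25.8 and 13.4 in the Het libraries. The Het values bracketed the WT range, and the log2 difference was 0.19 on the deposited and -0.16 on the read scale. Gins2, a subunit of the GINS complex that activates the helicase, had the largest difference of the class. It was at 16.6, 25.5, 24.8 and 20.1 in the WT libraries, and 47.7, 50, 43.7 and 21.8 in the Het libraries, with Het 139 inside the WT range. The log2 difference was 0.83 (SE 0.38, 95% interval -0.01 to 1.67, limma adjusted p = 0.614). On the read scale the values were 27.4, 36.8, 32.1 and 25.8 for WT, then 52.1, 51.9, 44.6 and 23.5 for Het, with Het 139 below and the other Het libraries above the WT range. The difference on that scale was 0.43 (95% interval -0.34 to 1.20).

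The clamp and the nucleotide enzymes overlapped between genotypes. Pcna, the sliding clamp of the polymerases, was at 1796 ± 107 in WT against 1775 ± 232 in Het (log2 difference -0.02), with its highest value, 2109.6, in Het 139. Rrm1, the large subunit of ribonucleotide reductase, was at 1222.5, 1131.2, 1199.2 and 1148.1 in the WT libraries, and 1334.8, 1461, 1346.1 and 1093.6 in the Het libraries. Het 139 was below and the other Het libraries above every WT library (0.15, 95% interval -0.09 to 0.38, limma adjusted p = 0.718). Rrm2, the subunit that is made in S phase, was at 159 in WT against 183 in Het (log2 difference 0.20). Rrm1 had means of 1175 in WT and 1309 in Het. Per kilobase of exon Rrm2 was at 61.7 against 113 for Rrm1, a narrower gap. Those lengths are unions over all transcripts of a gene, so the gap depends on the length used. Tyms, which makes thymidylate, was at 81.1 ± 20.2 and 83.9 ± 17.2 (0.06, and 0.02 on the read scale).

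No regulator of S phase entry passed the test. E2f1, the activator of many genes in both classes, was at 87.2, 122.2, 119.7 and 124.2 in the WT libraries, and 78.1, 103.4, 120.9 and 91.9 in the Het libraries, and overlapped (log2 difference -0.20, 95% interval -0.71 to 0.30, limma adjusted p = 0.807). Ccne1, the cyclin that drives Cdk2 into S phase, was at 516 ± 74.2 and 541 ± 74.2 (0.07), while its paralog Ccne2 was at 33.0 ± 4.94 and 31.4 ± 16.0 (-0.19, and -0.41 on the read scale). Uhrf1, which carries DNA methylation over to the new strand, was at 337 ± 51.4 and 306 ± 23.1 (-0.13).

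Other cell cycle genes gave no call either, by limma at the adjusted threshold. Of 63 tested other mitotic genes 43 had higher and 20 lower values in Het, with a median log2 difference of 0.23 (0.11 on the read scale) and 2 genes in each direction at an unadjusted p under 0.05. The 3 with the smallest p had differences of both signs. Cdc25b, the phosphatase that activates Cdk1, was at 3293 ± 264 in WT against 2691 ± 272 in Het (± SD over 4 libraries, log2 difference -0.29, limma adjusted p = 0.441). Racgap1, a scaffold of cytokinesis, was at 3924 ± 303 and 3294 ± 269 (-0.25, limma adjusted p = 0.489). Nuf2, of the kinetochore, was at 14.8 ± 5.53 and 30.0 ± 4.77 (1.05, limma adjusted p = 0.575), with no overlap. Of the 63 genes, 3 did not overlap and were higher in Het and 1 was lower, beside 2.13% and 2.86% of all tested genes. Nuf2 lay in the range of low values, and its read-scale value is not given here. Of 59 tested other replication genes 42 had higher and 17 lower values in Het (median 0.07 on both scales), and 1 passed an unadjusted p of 0.05. That gene was Mcm10, which helps to activate the helicase, at 10, 35.3, 32.2 and 13.6 in the WT libraries, and 38.2, 40.6, 59.3 and 54.3 in the Het libraries (1.20, limma adjusted p = 0.507). Mcm10 too had low values and is not given on the read scale. Tipin, of the fork protection complex, and Rpa3, of the single-strand binding protein, followed, with 0.35 and 0.51.

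Genes that control the passage from G1 to S phase had a median log2 difference of -0.04 over 30 tested genes, 13 higher and 17 lower in Het. Cdkn2d, an inhibitor of Cdk4 and Cdk6, was at 38.2, 35.3, 61.2 and 116.7 in the WT libraries, and 123.5, 105, 83.1 and 151.3 in the Het libraries. WT 65 lay inside the Het range (1.01, 95% interval 0.16 to 1.85, limma adjusted p = 0.513). A read-scale value of Cdkn2d is not given here. E2f5, an E2F repressor, and Cdk6 followed, with log2 differences of 0.32 and -0.52 (limma adjusted p = 0.635 and 0.653). Chosen for their level after the values had been seen, Rbl2, the pocket protein of the repressive complex of resting cells, lay between 4681.8 and 4893.4 in WT and between 4447.9 and 5246.2 in Het. Cdkn1b, the cyclin-dependent kinase inhibitor of resting cells, chosen likewise, lay between 6540.2 and 7616.3 in WT and between 6216.8 and 6987.1 in Het.

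The mean levels of both classes overlapped between the genotypes. The mean log2 level of the 20 mitotic genes was 5.78, 5.96, 6.15 and 5.81 in WT libraries 45, 54, 57 and 65, against 6.51, 6.15, 6.14 and 5.79 in Het 31, 53, 56 and 139. Het 31 was highest and Het 139 lay at the low end of the WT range. Of the 20 genes, 10 had their highest value in Het 31 and 8 their lowest in Het 139. The 17 replication genes were at 8.93, 8.92, 8.99 and 8.93 in WT and between 8.85 and 9.10 in Het libraries, with 6 of the 17 lowest in Het 139. The level of the 69 other mitotic genes found, low ones included, ranged from 5.81 to 6.16 over the WT libraries and from 6.11 to 6.47 over the Het libraries, which overlap. The 60 other replication genes (9.04 to 9.09 in WT, 9.12 to 9.24 in Het) and the 33 genes of G1 and S phase control (8.56 to 8.67 in WT, 8.69 to 8.76 in Het) did not overlap, with every Het library above every WT library. These means are on the deposited scale and include genes too low to be tested, and the median difference of the 30 tested G1 and S phase genes had the other sign. Of the 59 tested other replication genes none was called, 2 did not overlap and were higher in Het, and the median was 0.07. How often means of other gene lists do not overlap was not computed, so these 2 cases are descriptions.

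Several lists of markers of other cells were highest in Het 31, as the mitotic genes were, but did not follow them in every library. The 12 B cell genes were at mean log2 levels of 7.34, 8.90, 8.29 and 8.96 in the WT libraries, and 10.14, 9.22, 7.94 and 8.41 in the Het libraries, with 12 of 12 higher in Het (median 0.51, none called). Cd79b, a chain of the B cell receptor, was at 4726.1 in Het 31 and between 873.8 and 2071.7 in the others. The 8 NK cell genes (7.73 to 8.86 in WT, 7.99 to 9.89 in Het, 6 of 8 higher) and the 12 genes of activated and memory CD8 cells (7.21 to 8.16 in WT, 7.36 to 8.83 in Het, 10 of 12 higher) were also highest in Het 31. Het 56 was the lowest Het library in these 3 lists and had a mitotic level of 6.14. Among the WT libraries these 3 lists were highest in WT 65 (8.96, 8.86 and 8.16), where the mitotic level was 5.81. In 2 other lists, picked out after the values had been seen, the Het libraries had the same order as in the mitotic genes. No other marker list had it, and Het 53 and Het 56 nearly tied in the mitotic genes (6.15 and 6.14). The WT order differed, with WT 54 lowest in both lists and WT 45 lowest in the mitotic genes. The number of genes above 0 also fell in the order of the Het libraries, at 14656, 14547, 14012 and 13863 in Het 31, 53, 56 and 139. Both lists include genes too low to be tested, and the part of library depth in this order was not tested. The 5 germinal centre B cell genes found were at 4.68, 4.25, 5.03 and 5.55 in WT, then at 6.45, 5.93, 5.88 and 4.75 in Het 31, 53, 56 and 139, with none of 3 tested called. The 7 thymocyte genes were at 4.97, 4.85, 5.07 and 5.02 in WT, then at 5.65, 5.45, 5.33 and 4.62 in Het 31, 53, 56 and 139. Of these 7, 3 were tested and had higher values in Het, with none called on the deposited scale and 1 on the read scale. Dntt, the terminal transferase of developing lymphocytes, was at 503 ± 101 in WT against 846 ± 30.7 in Het (limma adjusted p = 0.0636), while Rag2 was listed at 0 in all 8 libraries. Plasma cell genes were at 6.82 to 7.82 in WT and 7.40 to 8.06 in Het, myeloid genes at 6.08 to 6.56 and 5.57 to 7.36, and red cell and megakaryocyte genes at 4.19 to 5.06 and 4.85 to 5.42. Skin genes were high in WT 45 and 54 (9.07 and 8.49, others 2.71 to 5.97), and without those 2 libraries the mitotic median was 0.07 and no member was called. The part of these cells in the values of the 37 genes was not tested. Longer genes had lower values in Het over all tested genes with a length (Spearman rho -0.30 across 11920 genes, which are not independent replicates), while rho was -0.16 across the 20 mitotic and 0.33 across the 17 replication genes.

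**Figure D5:**
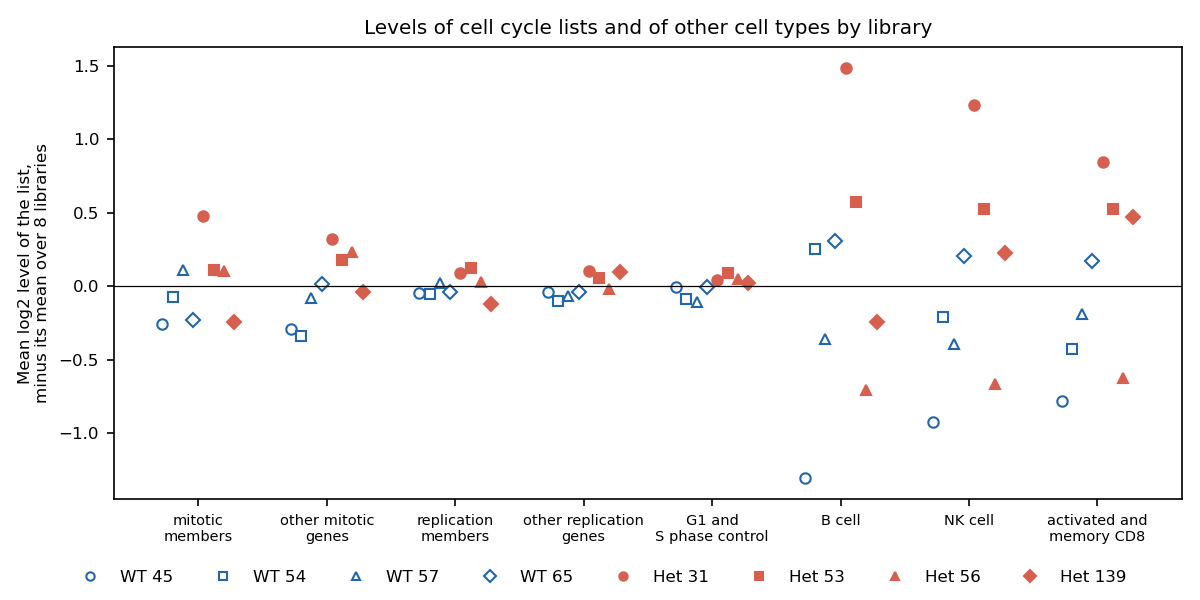
Mean log2 level of each gene list in each library, minus its mean over the 8 libraries, for 5 cell cycle lists and 3 lists of other cell states, with open blue symbols for WT and filled red symbols for Het. The replication and G1 and S phase lists stay near 0, and Het 31 is the highest library in both mitotic lists and in the B cell, NK cell and memory lists.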

How the data were processed

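Messenger RNA of naive CD8 T cells was sequenced in 4 WT and 4 Het libraries, made from total RNA with a stranded kit for messenger RNA, per the labels' protocols. For 22609 genes the authors deposited a normalized signal, based on read counts and written to 1 decimal. Per the submitters' processing notes, CASAVA, TopHat2, HTSeq and DESeq are listed beside the build mm9, but which tool normalized the values is not given in the sources used here. When sorted, the deposited signal values matched at higher levels: across libraries, values at the same rank differed from their mean by at most 2% in 100% of the 9513 ranks that averaged 100 or more. Totals (27488636.8 to 27489670) therefore carry no depth. Because each read number takes 1 value in a library, the rank of a value among the distinct values above 0 estimated the reads behind it. The labels name no molecular identifiers, so such estimates cover counting error only.

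Genes with a mean of at least 10 were tested (12048), with limma 3.58.1 in R 4.3.3 on log2(value + 1), with a trend, 2-sided, and Benjamini-Hochberg adjustment over all of them at 0.05. Log2 differences are Het minus WT on that scale. The added 1 makes those of low genes smaller in size. Those of low genes also differed between the 2 scales. Over genes with a mean from 10 to under 100 the median was 0.18 on the deposited scale and -0.10 on the read scale. The read scale is an estimate that was not checked against raw counts. Exact permutation tests were 2-sided over the 70 assignments of libraries. The limma test was checked on simulated data with independent normal noise on the log2 scale. That simulation does not copy the unequal reads behind low values, so it does not cover them. Exon lengths are unions over all GENCODE M21 transcripts of a gene, so they can exceed the length of a single transcript. The members and all lists were chosen with earlier results of these data known. Any of the 37 members was named, and of each other cell cycle list the 3 genes with the smallest p, beside marker genes of high level or at 0. Rbl2 and Cdkn1b were named outside this rule, for their level, after the values had been seen. Alternatives were the pseudocount (0.5 or 5), the filter (none, or a mean of at least 50), size factors by the median of ratios, no trend, array weights, each library left out, and Stmn1 moved between classes. The scale of estimated reads and leaving out WT 45 and 54 were added after seeing the data. The labels give no batch.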

Additional observations from a re-analysis of the deposited data

Results flagged for a closer look

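A library was listed here when its gap to the nearest of the other 3 of its genotype was nearly the whole range of the 4, which chance gives in about 1 of 20 groups. Of 126 groups looked at (the 37 members, 9 other cell cycle genes, Brca1 and the gene lists, in each genotype), 10 did (7.94%).

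Among the members, Birc5 was at 73.7 in WT 45 (others 51.2 to 53.4) and Bub1 at 33.8 in WT 54 (others 12.2 to 14.2). Stmn1 was at 57 in WT 57 (others 34.8 to 38.2), and E2f1 at 87.2 in WT 45 (others 119.7 to 124.2). Mcm7 was at 1774.4 in Het 31 (others 1598.6 to 1623.5). The mean log2 level of the replication genes was 8.99 in WT 57 (others 8.92 to 8.93), a narrow range. Of the other cell cycle genes, Cdc25b was at 2899.1 in WT 45 (others 3391.8 to 3460.6) and E2f5 at 576.1 in Het 139 (others 516.4 to 523.6). The nerve list was at 5.99 in WT 45 (others 8.07 to 8.20) and at 5.24 in Het 56 (others 2.18 to 2.62).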

How the results depend on the processing

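No paired analysis was made because the labels name no pairs, and the library numbers of the 2 genotypes have none in common. No mitotic, replication or other cell cycle gene was called under any alternative run. The lowest limma adjusted p was 0.272 for a mitotic gene, 0.383 for a replication gene and 0.159 for another cell cycle gene. Leaving out each library gave mitotic medians from 0.07 (without Het 31) to 0.37 (without WT 57) and replication medians from -0.00 to 0.04. Of 619 member values under an alternative, 616 moved by less than the SD between libraries and 3 by more: Ccnb1 on the read scale (0.66), and Plk1 (0.28) and Mcm3 (-0.11) without WT 45 and 54. The sign turned in 38 of the 619, and 21 members kept theirs throughout, Mki67, Ccnb1, Plk1 and Gins2 among them.

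Over all genes the 62 calls became 123 without a filter (9 of them higher in Het), 14 at a mean of at least 50, 137 on the read scale (1 higher), 4 without WT 45 and 54, and 11 to 94 with 1 library left out. Depth limits the low genes: at a value of 10 about 8 to 23 reads stood behind each value.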
